A study of Mus musculus with 6 samples.

Results

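ATP-binding cassette (ABC) genes encode proteins that share a nucleotide-binding domain, and the expression of 46 of them was compared between mutant and control mouse adrenal glands. They were chosen by gene symbol, as all genes of subfamilies A to G with 1 platform symbol of the form Abca to Abcg plus a number, without the sterol exporters Abca1 and Abcg1, from 48 such genes. Each had 1 probe set, among 19505 genes with one and 22206 probe sets compared in all. Whole adrenal glands came from female mice aged 2 months. Mutant animals had the genotype Mst1flox/flox;Mst2flox/flox;Nr5a1-cre (n = 3), in which the Cre transgene is active in steroid-producing cells, and control animals had the floxed alleles of both Hippo kinase genes alone (n = 3), so that both groups carried the floxed alleles and the mutants alone carried Cre. Each animal gave 1 array. The question was which ABC genes differed between the genotypes, by subfamily and by animal.

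Most ABC proteins use ATP to move lipids, sterols, drugs, conjugated anions or peptides across a membrane. Subfamily A moves lipids, B holds the P-glycoproteins, bile transporters and mitochondrial transporters, C the exporters of conjugated organic anions and the sulphonylurea receptors, and D transporters of peroxisomes and lysosomes. G moves sterols and drugs, whereas E and F lack membrane domains and act in translation. In the mouse adrenal cortex the P-glycoprotein encoded by Abcb1b is known as an abundant membrane protein that can export steroids.

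Whole glands hold cells with and without Cre, and fewer cells of a type cannot be told apart from less RNA per cell. The targeted gene Stk4, which encodes MST1, had log2 signals of 8.14, 8.36 and 8.46 in mutants and 8.32, 8.66 and 8.94 in controls, and its change of -0.32 (SE 0.19, limma adjusted p = 0.623) missed the threshold. Since the positions of its probes are unknown here, this value does not check the labels, and Stk3, which encodes MST2, was not analysed here. Cortex markers were strong in every animal, with a summed signal of 20.74 to 20.87 in mutants and 20.79 to 20.84 in controls on the log2 scale. Liver and fat markers, by contrast, varied widely within both groups. The liver marker Alb stood at 9.67, 14.70 and 9.52 in mutants and 10.98, 14.06 and 6.63 in controls, so mutant 2 and control 2 were high. The other 4 of 5 liver markers had both group means at background level but were also highest in these animals. Ttr stood at 8.86 in mutant 2 and 8.67 in control 2, and Apoa2 at 8.04 and 8.02. The fat marker Adipoq stood at 14.09, 10.69 and 9.42 in mutants and 7.24, 10.70 and 11.78 in controls. All 5 measured kidney markers were inside the span of the 23 background probe sets, 2.53 to 7.32, which serves below as the background range.

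No ABC gene passed the test between mutant and control glands. At an adjusted p of 0.05 in limma's moderated test over all probe sets, 0 of the 46 genes passed, where 16 of 22206 probe sets (0.0721%) did, 12 of them higher (0.054%) and 4 lower (0.018%). That split was 20 higher and 12 lower once the array medians were set equal. The smallest adjusted p of the 46 was 0.191, for Abcd4. At an unadjusted p under 0.05 there were 8 ABC genes, or 17.4%, beside 10.4% of all probe sets. Among the 23 ABC genes with a group mean above the background range there were 3 higher and 3 lower, beside 13.6% of the 10355 such probe sets in either direction. Higher signals in mutants were seen for 3 of the 8, Abcg2, Abcc5 and Abcg4 (6.52%, beside 5.42% of all probe sets), and lower ones for 5, Abcd4, Abcb10, Abcb8, Abcf2 and Abcb1b (10.9%, beside 4.96%). Their number was 4 without mutant 2 (beside 9.08% of all probe sets), 5 without control 2 (8.17%) and 3 without both of these animals (7.13%). It was 11 without control 3 (11.6%) and 12 with array weights (11.3%), the highest of the settings tried.

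Over the whole family the changes were small and went both ways. Log2 changes were above 0 for 21 genes and below 0 for 25, from -0.61 (Abcd4) to 0.79 (Abcd2), with a median of -0.09, beside a median of -0.01 over all probe sets. Without control 2 the median was -0.0014, and without mutant 3 it was -0.01. The 3 mutant animals lay wholly on one side of the 3 controls for 11 ABC genes, or 23.9%, beside 16.4% of all probe sets. With equal array medians there were 8 such genes, or 17.4%, beside 16.4%, close to the background. With quantile normalization there were 12 such genes, beside 16.3% of all probe sets. Of the 11, 5 were higher in mutants (10.9%, beside 8% of all probe sets) and 6 were lower (13%, beside 8.36%). Both group means were inside the background range for 23 of the 46 genes, so that a low signal of these genes was not told apart from background. Signals of different probe sets do not rank the RNA amounts of different genes, and the changes below compare each gene with itself.

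**Figure D1:**
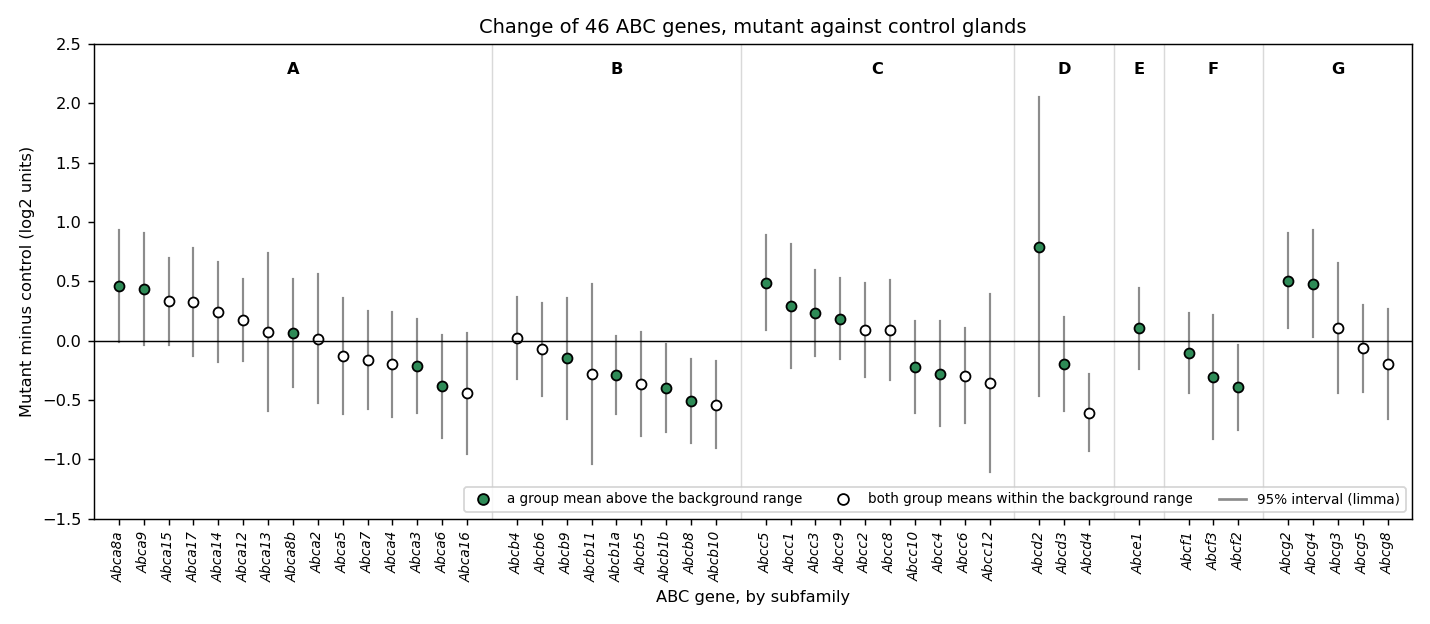
Log2 change, mutant minus control, of each of the 46 ABC genes by subfamily, with 95% intervals of the limma fit as vertical lines. Open circles are the 23 genes with both group means within the background range. Subfamily B sits mostly below 0 (8 of 9 genes), and Abcd2, at 0.79, has the widest interval.

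Subfamily B had lower signals in mutant glands for 8 of its 9 genes, with a median change of -0.29, and 0 passed the test. Over all probe sets 48.0% of the changes were above 0. For 4 of the 9 all mutants were below all controls, beside 8.36% of all probe sets, and 5 of the 9 had both means inside the background range. These 4 genes are the P-glycoprotein pair Abcb1a and Abcb1b, whose products pump drugs and other hydrophobic compounds out of cells, and Abcb8 and Abcb10, transporters of the inner mitochondrial membrane. Against the control mean of each gene, the subfamily's median was -0.23, -0.47 and -0.31 in the mutants and 0.04, 0.11 and -0.14 in the controls. Every mutant was thus below every control in this median, which is a description of the 9 genes and not a test.

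Abcb1b had log2 signals of 16.50, 16.51 and 16.78 in mutants and 17.08, 17.11 and 16.80 in controls. The gap between mutant 3 and control 3 was narrow, and the 95% interval of the change, -0.40 (SE 0.16), was -0.77 to -0.03, with a limma adjusted p = 0.446 that missed the threshold. Abcb1a, its neighbour and close relative, had 14.46, 14.65 and 14.51 in mutants and 14.74, 14.94 and 14.82 in controls (change -0.29, SE 0.14, limma adjusted p = 0.536). Their probe sets may share signal, since the genes are close copies and the probe positions are unknown here. Markers of the cortex, where Abcb1b is known to be made, had a median change of -0.02, with 2 of 6 higher and 4 lower.

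The upstream stretches of this pair are shown because the genes lie side by side and both had lower signals, and that of Abcg2 is shown as one of the 2 member genes whose stretch held the CAAGGTCA site bound by SF-1, the product of Nr5a1. Each is the 250 bases before a gene start in RefSeq (GRCm38.p6), read 5′ to 3′ on the gene's strand. Capitals mark CAAGGTCA, the TEAD core GGAATG or the GC box GGGCGG on either strand, and these letters overlap nowhere in the stretches shown. They come from chr5:8797897-8798146 (+) for Abcb1b, chr5:8566841-8567090 (+) for Abcb1a and chr6:58584283-58584532 (+) for the first of 3 starts of Abcg2.
Abcb1b: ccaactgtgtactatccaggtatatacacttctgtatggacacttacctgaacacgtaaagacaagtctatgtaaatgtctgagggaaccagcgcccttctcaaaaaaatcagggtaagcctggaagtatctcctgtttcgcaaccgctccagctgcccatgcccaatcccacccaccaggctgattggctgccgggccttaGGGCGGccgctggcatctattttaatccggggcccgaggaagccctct
Abcb1a: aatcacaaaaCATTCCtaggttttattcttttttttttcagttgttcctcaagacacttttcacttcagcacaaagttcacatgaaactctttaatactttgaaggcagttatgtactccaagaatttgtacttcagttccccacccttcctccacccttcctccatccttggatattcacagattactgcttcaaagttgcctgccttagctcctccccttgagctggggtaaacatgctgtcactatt
Abcg2: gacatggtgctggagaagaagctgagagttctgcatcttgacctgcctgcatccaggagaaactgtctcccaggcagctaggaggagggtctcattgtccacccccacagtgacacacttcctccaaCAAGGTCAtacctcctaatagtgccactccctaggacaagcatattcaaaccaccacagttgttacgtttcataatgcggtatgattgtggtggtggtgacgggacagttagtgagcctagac
Aligned end to end with 42 gap columns, the Abcb1b and Abcb1a stretches were 47.2% identical. No other pair of stretches was aligned, so this value does not show that the pair shares upstream sequence. Abcb1b held 1 GC box, 48 bases before its start, and neither other motif, whereas Abcb1a held 1 TEAD core, on the opposite strand 240 bases before its start. In Abcg2 the SF-1 site began 123 bases before the start shown, and the stretches of its other 2 starts held 6 GC boxes and no SF-1 site. Stretches were given for 37 of the 46 genes, 44 in all. CAAGGTCA was found in 4.55% of these and 1.33% of all 32851 stretches, GGAATG in 18.2% and 12.6%, and GGGCGG in 43.2% and 32.7%. These matches describe letters and do not show binding.

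Of the mitochondrial genes, Abcb8 had signals of 10.08, 10.12 and 10.04 in mutants and 10.80, 10.42 and 10.54 in controls. The change was -0.51 (SE 0.15), with a 95% interval of -0.86 to -0.15, and missed the threshold (limma adjusted p = 0.317), although the mutants differed among themselves far less (SD 0.04) than the controls (SD 0.20). Abcb10, which is needed for haem synthesis in developing red cells, had 6.82, 6.49 and 6.82 in mutants and 7.13, 7.37 and 7.27 in controls (change -0.54, SE 0.16, limma adjusted p = 0.308). Both of its group means were within the background range, so the size of this difference is uncertain. Abcb6, a transporter linked to porphyrin handling, overlapped between groups (change -0.07). Among 5 measured genes of haem and iron-sulphur handling 0 passed, 1 was higher and 4 were lower. Glrx5, a mitochondrial glutaredoxin of iron-sulphur assembly, had the smallest p of these, with 13.37, 13.64 and 13.56 in mutants and 13.98, 13.76 and 14.05 in controls (change -0.41, SE 0.16, limma adjusted p = 0.422).

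The rest of subfamily B lay in the background or had small differences. Abcb4, which moves phosphatidylcholine into bile, had the highest change of the subfamily, 0.02 (SE 0.15), with 4.39, 4.60 and 4.31 in mutants and 4.45, 4.49 and 4.30 in controls. Together with the bile salt pump Abcb11 and the sterol pair Abcg5 and Abcg8, all 4 bile and sterol secretion genes had both means inside the background range. That held also in mutant 2 and control 2, the animals with high Alb, where these 4 genes did not exceed 4.60 in mutant 2 and 4.92 in control 2.

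**Figure D2:**
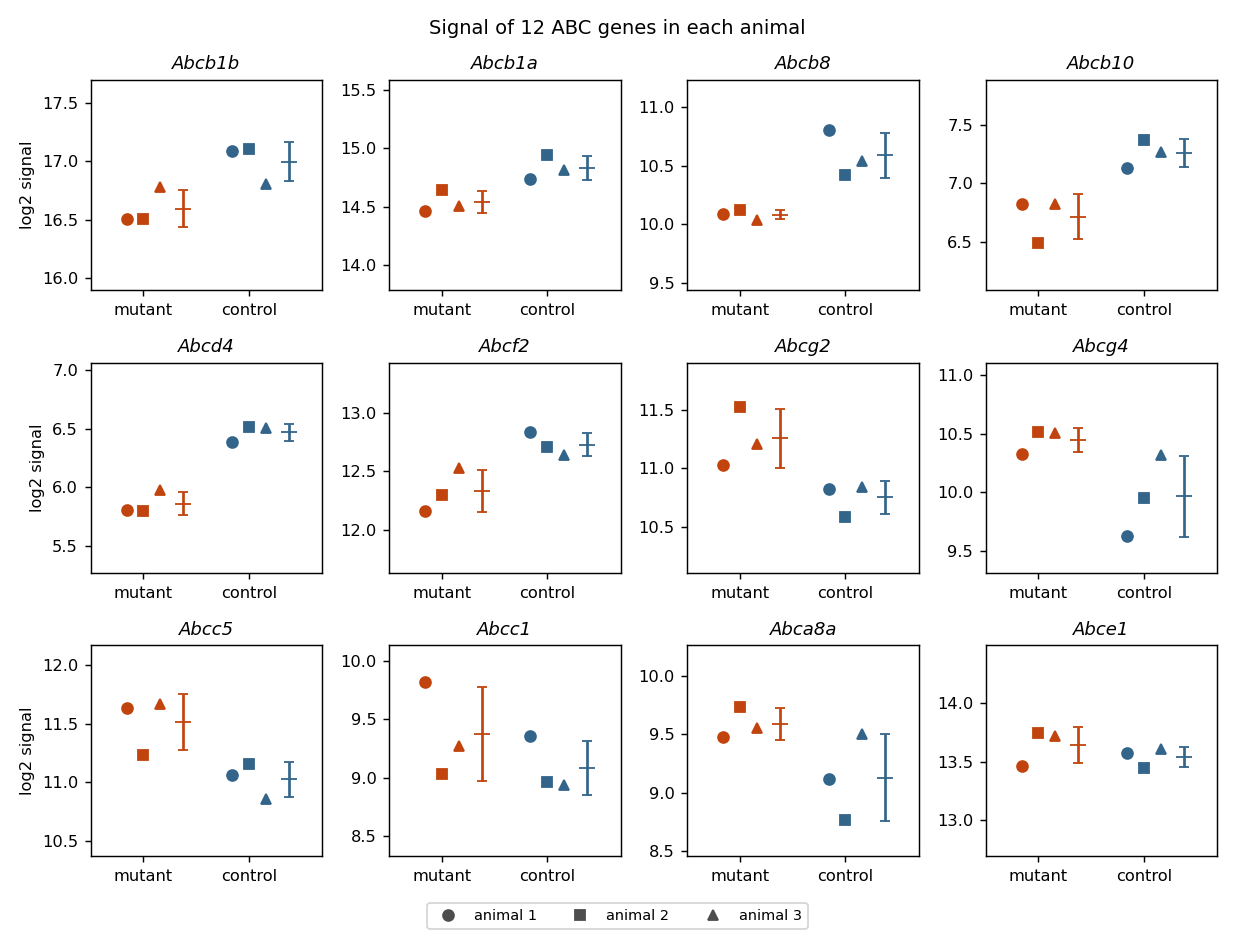
Log2 signal of 12 ABC genes in each animal, with mutants left of controls. Bars give the group mean and SD (n = 3), every panel spans 1.8 log2 units, and the animal numbers do not pair mutants with controls. Abcb1b, Abcb1a, Abcb8, Abcb10, Abcd4 and Abcf2 are lower in all 3 mutants, Abcg2, Abcg4 and Abcc5 are higher in all 3, and Abcc1, Abca8a and Abce1 overlap.

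Subfamily G had changes above 0 for 3 of 5 genes, with a median of 0.10, and 0 passed. Its 2 genes with a signal above the background range, Abcg2 and Abcg4, were higher in every mutant than in every control. Abcg2, an exporter of drugs, urate and porphyrins that is known from capillary endothelium and from stem cells, had 11.03, 11.52 and 11.21 in mutants and 10.83, 10.59 and 10.84 in controls. That is a change of 0.50 (SE 0.18) with a 95% interval of 0.10 to 0.91 (limma adjusted p = 0.376). Of the endothelial markers 5 of 6 had changes above 0, and for 4 of 6 all mutants were above all controls, beside 8% of all probe sets. Of these 6 markers 0 passed (smallest limma adjusted p = 0.239). Their summed signal was 16.29 to 16.43 in mutants and 15.87 to 16.12 in controls, 0 of the 6 were within the background range, and their part in the Abcg2 difference was not tested.

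Abcg4, a transporter related to Abcg1 and known for sterol efflux in brain, had 10.33, 10.51 and 10.50 in mutants and 9.63, 9.95 and 10.32 in controls. Mutant 1 and control 3 almost met, and the change was 0.48 (SE 0.20, limma adjusted p = 0.45). All 5 markers of chromaffin cells had changes below 0, with a median of -0.32, and their summed signal was 17.86 to 18.10 in mutants and 17.83 to 18.76 in controls, where control 2 alone was high. The part of these cells in the Abcg4 value was not tested. Abcg8, which forms the sterol transporter of gut and liver with Abcg5, had the lowest change of the subfamily, -0.20 (SE 0.20), with 3.10, 3.59 and 3.34 in mutants and 3.87, 3.45 and 3.31 in controls. The subfamily's median moved between -0.08 without mutant 1 and 0.34 without mutant 3.

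Subfamily C went both ways, with 6 of 10 genes above 0 and a median of 0.09. These 10 are exporters of organic anions and the sulphonylurea receptors. The receptor genes Abcc8 (change 0.09) and Abcc9 (change 0.19) are among the 6 above 0. Abcc5, known to export cyclic nucleotides and nucleotide analogues, had 11.63, 11.24 and 11.67 in mutants and 11.06, 11.16 and 10.86 in controls. All mutants were above all controls, with a change of 0.49 (SE 0.17) and a 95% interval of 0.09 to 0.89. It missed the threshold (limma adjusted p = 0.39). Abcc1, an exporter of glutathione conjugates, had 9.82, 9.03 and 9.27 in mutants and 9.35, 8.97 and 8.93 in controls. Its groups overlapped, and its change of 0.29 (SE 0.23) was 0.07 without mutant 1. Abcc4, which also exports cyclic nucleotides, had a change in the other direction, -0.28 (SE 0.19, limma adjusted p = 0.685). Abcc12 had the lowest change of the subfamily, -0.36 (SE 0.33), from signals of 4.08, 3.86 and 4.25 in mutants and 3.90, 5.24 and 4.12 in controls. This rested on control 2, without which the change was 0.05.

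The sulphonylurea receptors are the regulatory subunits of ATP-sensitive potassium channels. Abcc9, the receptor known from vessel walls and heart, had 9.84, 9.93 and 10.04 in mutants and 9.82, 9.60 and 9.84 in controls. Mutant 1 and control 3 were nearly equal, and the change was 0.19 (SE 0.15, limma adjusted p = 0.727). Smooth muscle and pericyte markers had changes above 0 in 5 of 6 cases and a summed signal of 14.39 to 14.71 in mutants and 13.73 to 14.18 in controls. Cspg4 and Myh11 were within the background range, and the part of these cells in the Abcc9 value was not tested. The pore subunit that pairs with Abcc9 in vessels, Kcnj8, had 8.29, 8.15 and 8.07 in mutants and 8.41, 8.23 and 7.85 in controls, a change of 0.01 (SE 0.18). The other receptor, Abcc8, and its pore Kcnj11 lay within the background range, Kcnj11 at 4.94, 4.78 and 4.95 in mutants and 4.21, 4.68 and 4.19 in controls (change 0.53, SE 0.18, limma adjusted p = 0.36).

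Subfamily D showed its 3 genes in 3 patterns. Abcd4, a protein of the lysosomal membrane needed to release vitamin B12, had signals of 5.81, 5.80 and 5.97 in mutants and 6.38, 6.52 and 6.51 in controls. These groups were further apart than the spread within either, with a change of -0.61 (SE 0.14, 95% interval -0.93 to -0.29), a 1.52-fold lower signal. It did not pass over all probe sets (limma adjusted p = 0.191), and both means were within the background range. Abcd3, an abundant peroxisomal membrane protein for branched and dicarboxylic fatty acids, had 12.26, 11.73 and 12.03 in mutants and 12.16, 12.17 and 12.28 in controls. Mutant 1 was among the controls, and the change was -0.20 (SE 0.17, limma adjusted p = 0.756), or -0.06 without mutant 2.

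Abcd2, which carries very long chain fatty acids into peroxisomes and is known from fat tissue, had the largest change and the widest spread of the 46 genes. Its signals were 9.11, 7.55 and 7.00 in mutants and 6.42, 6.97 and 7.90 in controls, so the groups overlapped. The change of 0.79 (SE 0.55) had a 95% interval of -0.47 to 2.05 (limma adjusted p = 0.685), and it was 0.18 without mutant 1, 0.45 without control 1, 1.19 without control 3 and 1.24 without mutant 3. All 6 adipocyte markers had changes above 0, with 0 groups apart, and only Lep of them was within the background range. Their mean signal was 12.20, 9.85 and 9.20 in mutants and 7.82, 9.49 and 10.81 in controls, and their summed signal spanned 14.30 to 16.59 in mutants and 13.68 to 15.36 in controls. Mutant 1 was highest and control 1 lowest both in this mean and in Abcd2. With the adipocyte signal of each animal as a covariate, an alternative added after seeing the data, the Abcd2 change was 0.17 (limma adjusted p = 0.878). Since this covariate was picked with the same arrays in view, the part of fat cells in the Abcd2 value was not tested. Of 4 measured genes of peroxisomal membranes and fatty acid oxidation 0 passed, and their changes ran from -0.34 (Acaa1a, a peroxisomal thiolase, SE 0.18, limma adjusted p = 0.587) to 0.08 (Pex19).

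**Figure D3:**
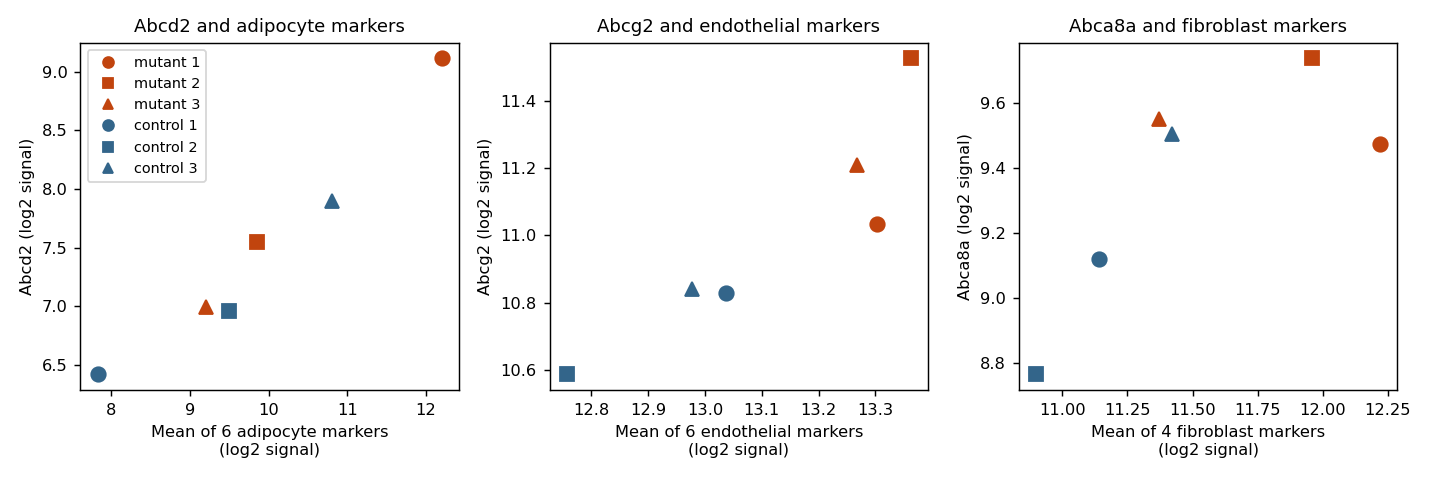
Log2 signal of Abcd2, Abcg2 and Abca8a in each animal (vertical axes) against the mean log2 signal of adipocyte, endothelial and fibroblast markers (horizontal axes), mutants in red and controls in blue. Mutant 1 is highest and control 1 lowest in both Abcd2 and adipocyte markers, and the 3 mutants are to the right of the 3 controls in endothelial markers.

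Subfamily A, the lipid transporters, had 9 of 15 genes above 0 and a median change of 0.06, and 10 of its genes had both means inside the background range. Abca8a, a relative of the human lipid transporter gene ABCA8, had the highest change of the subfamily, 0.46 (SE 0.21), with a 95% interval of -0.01 to 0.93 (limma adjusted p = 0.494). Its signals were 9.47, 9.74 and 9.55 in mutants and 9.12, 8.76 and 9.51 in controls, so control 3 lay among the mutants. The 4 measured fibroblast markers had changes above 0, with a summed signal of 15.24 to 15.88 in mutants and 15.03 to 15.33 in controls, 0 within the background range, and their part in Abca8a was not tested. Abca16 had the lowest change, -0.44 (SE 0.22), with 4.97, 4.41 and 5.01 in mutants and 4.91, 5.46 and 5.36 in controls, all within the background range.

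Of the 46 genes 15 lie beside another of them, in 5 runs with no other protein-coding gene of the RefSeq table between them, and neighbours did not share a direction in most runs. Abca8b, Abca8a, Abca9, Abca6 and Abca5 follow each other, with changes of 0.06, 0.46, 0.43, -0.39 and -0.13. Abca14 and Abca15 had changes of 0.24 and 0.33 and the adjoining Abca16 -0.44. Abca17 had 0.32, and its neighbour Abca3, a transporter of surfactant lipids, -0.21. Abcb4 adjoins Abcb1b, which follows Abcb1a, and had a change near 0, and in the run of Abcg5 and Abcg8 both changes were below 0, at -0.07 and -0.20. Both means were within the background range for Abca5, Abca14, Abca15, Abca16, Abca17, Abcb4, Abcg5 and Abcg8, so the directions of their changes are uncertain.

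Subfamilies E and F act on ribosomes, and 0 of their 4 genes passed. Abce1, which splits ribosomes after translation ends, had 13.47, 13.74 and 13.72 in mutants and 13.58, 13.44 and 13.61 in controls, overlapping groups with a change of 0.10 (SE 0.15, 95% interval -0.24 to 0.45). The 3 genes of subfamily F were all below 0, with a median of -0.31, or -0.11 without mutant 1 and -0.17 without control 1. Abcf2 had 12.17, 12.30 and 12.53 in mutants and 12.83, 12.71 and 12.64 in controls, groups that did not overlap, with a change of -0.40 (SE 0.16, limma adjusted p = 0.439). Abcf1, a factor of translation initiation, had 8.79, 8.83 and 9.03 in mutants and 9.10, 8.93 and 8.93 in controls (change -0.10, SE 0.15). Of 3 measured genes of ribosome recycling and rescue 0 passed. Eif2ak4, the kinase that senses uncharged tRNA, had the smallest p, with 9.65, 9.64 and 9.96 in mutants and 9.52, 9.30 and 9.28 in controls (change 0.38, SE 0.16, limma adjusted p = 0.466).

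**Figure D4:**
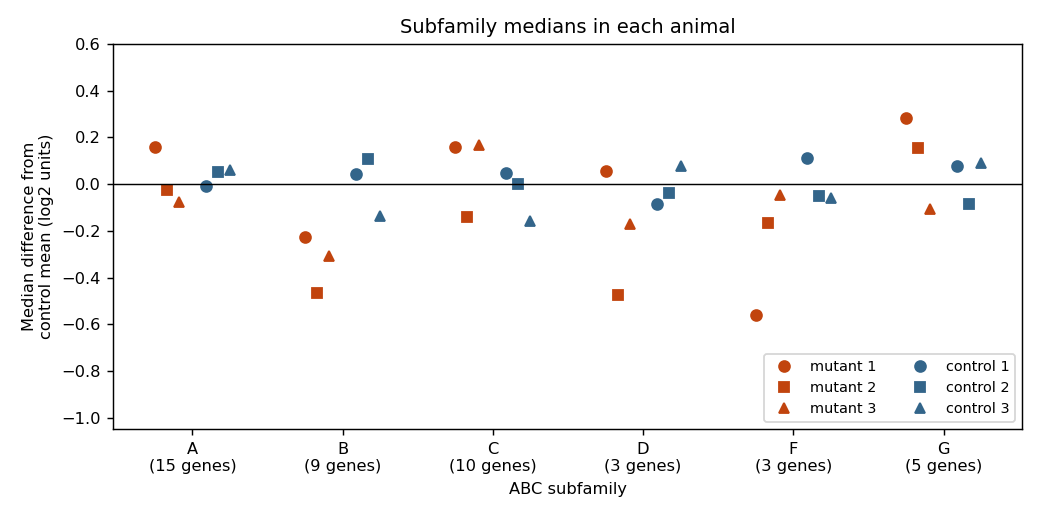
Median over the genes of each subfamily of the log2 difference from the gene's control mean, for each animal, with mutants in red left of controls in blue (subfamily E has 1 gene and is not drawn). In subfamily B the mutants lie between -0.47 and -0.23, below the controls (-0.14 to 0.11), and in A, C, D, F and G the animals of both groups overlap.

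Animal by animal, each mutant had ABC genes above and below all controls. Mutant 1 exceeded all controls for 15 of the 46 genes and lay below all of them for 12, mutant 2 for 10 and 17, and mutant 3 for 12 and 14. The shares above all controls were 32.6%, 21.7% and 26.1% in mutants 1, 2 and 3, beside 28%, 26.9% and 24.8% of all probe sets. Those below were 26.1%, 37% and 30.4%, beside 29.9%, 28.2% and 26.8%. In subfamily B, mutants 1, 2 and 3 were below all controls for 4, 5 and 6 of 9 genes. In subfamily C mutant 1 was above all controls for 6 of 10 genes and below for 0, whereas mutant 2 was above for 2 and below for 4. The medians of subfamily F, at -0.56, -0.17 and -0.05 in mutants and 0.11, -0.05 and -0.06 in controls, show mutant 1 as the lowest animal.

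Partners and regulators of ABC proteins gave no passing gene either. Of 29 listed genes 25 were measured, 0 passed, 13 were above 0 and 12 below, with a median change of 0.01. At an unadjusted limma p under 0.05 there were 3 of the 25, beside 10.4% of all probe sets. The peptide transporters Tap1 and Tap2 and the tapasin gene Tapbp, which load antigen and belong to or assist the family outside the symbol pattern, had changes of -0.16, -0.35 and -0.23. Tap2 had 9.07, 9.03 and 8.81 in mutants and 9.35, 9.17 and 9.45 in controls (SE 0.15, limma adjusted p = 0.484). Among 7 measured regulators of transporter genes, Ahr, the dioxin receptor that induces Abcg2, had the smallest p, with 5.57, 5.99 and 5.44 in mutants and 5.02, 5.23 and 5.78 in controls (change 0.32, SE 0.24, limma adjusted p = 0.702). Both of its means, like those of 4 of the 7 regulators in all, were inside the background range. The chloride channel gene Cftr, another family member outside the pattern, also lay within the background range, with 5.32, 5.59 and 5.65 in mutants and 5.86, 5.27 and 5.05 in controls (change 0.13, SE 0.23).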

How the data were processed

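Expression was measured in whole adrenal glands of 3 mutant and 3 control mice on Affymetrix whole-transcript arrays. Deposited were log2 signals for each probe set, made by the authors with Transcriptome Analysis Console 4.0 per the submitters' processing notes. How background was corrected and arrays were normalized is not stated in the labels. Array medians were close (6.76 to 6.83), so nothing further was done. Normalization can remove a change common to most genes, and dim signals compress differences. Control probe sets (6640) were left out, and 22206 were tested, of which 19572 have 1 platform gene symbol, 0 several and 2634 none. All 46 ABC genes matched a RefSeq entry by Entrez identifier, with 0 symbols changed, and 0 had more than 1 probe set.

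Mutant minus control was fitted with limma 3.58.1 (lmFit, eBayes; R 4.3.3) without covariates. P-values are two-sided and Benjamini-Hochberg adjusted over all tested probe sets, with a threshold of 0.05. SEs and 95% intervals are those of the moderated fit. Summed marker signals are log2 of the summed linear signals. The procedure was tested on simulated data, and the number of animals limits the precision.

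Members and lists were chosen with earlier results of these data known. Values per animal are given for members with an unadjusted p under 0.05, the 6 of highest mean signal, the highest and lowest change per subfamily of at least 3 genes, and Abcb1a, Abcb1b, Abcc1, Abcc9, Abcd2, Abcd3, Abce1 and Abcg2. From each partner list the gene of smallest p is given, with Kcnj8 and Kcnj11. The remaining members, and Tap1, Tapbp and Pex19, were chosen for naming with values in view, to fill in counts and runs of neighbours.

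Alternatives were quantile normalization, equal array medians, leaving out probe sets below the median level, leaving out those with no symbol, a variance trend with robust prior, array weights, a replicate block, the intron control signal as a covariate, averaging a gene's probe sets, and each animal left out. Leaving out both animals numbered 2 and the adipocyte signal as a covariate were added after seeing the data.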

Additional observations from a re-analysis of the deposited data

How the results depend on the processing

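The count of 0 ABC genes past the threshold was the same under every alternative run, and the smallest adjusted p of any of them was 0.149 (Abcb1b, limma with variance trend and robust prior). The 16 probe sets called over the whole array became 38 with quantile normalization, 32 with a common median, 92 above the median level, 41 with 1 symbol, 175 with the variance trend and robust prior, 48 with array weights, 8 with the intron covariate and 2 with the adipocyte covariate or without both animals numbered 2. With the replicate block 1 was called. Deviations of same-numbered animals correlated at -0.09, 0.08 and -0.07, so the numbers are not taken to pair animals. Leaving out 1 animal gave 1 to 15 calls (1 without control 1, 2 or 3, and 6 without mutant 2). ABC genes with groups apart numbered 8 with a common median (beside 16.4% of all probe sets) and 12 with quantile normalization (beside 16.3%). With 1 animal left out they numbered 13 to 21, beside 24.1% to 30.2% of all probe sets, since fewer animals also separate more probe sets. There were 21 without control 3 (beside 30.2%), 18 without mutant 1 (beside 25.5%) and 18 without both numbered 2 (beside 37.9%). The family median ran from -0.14 (without control 3) to -0.0014 and was -0.0115 without both numbered 2. Subfamily medians with 1 animal left out ran from -0.44 to -0.24 for B, -0.01 to 0.14 for A, -0.02 to 0.20 for C, -0.32 to -0.06 for D, -0.44 to -0.11 for F and -0.0769 to 0.34 for G. Above the median level D was 0.30 and G 0.49, because genes such as Abcd4 and Abcg8 were then no longer tested, and A was -0.0558 with the adipocyte covariate. Among 335 values of 20 named genes 7 changed sign, in 2 genes. Abcb4 was -0.00952 with a common median, -0.000597 with array weights, -0.0269 without both numbered 2 and -0.0648 to 0.0809 with 1 animal left out, and Abcc12 was 0.16 without both numbered 2 and -0.62 to 0.0531 with 1 left out. The cause of these shifts was not tested.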
